A study of Mus musculus with 8 samples.

Results

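Hearts of male mice were profiled by RNA sequencing, and 40 genes that mark the endothelium of the coronary vessels were followed across all of them. The genes were chosen by symbol from the gene count table, and all 40 were among its 17190 listed genes. The 8 hearts came from 4 wild-type mice (numbered 2, 4, 5 and 6) and 4 mice lacking Gpihbp1 (Gpihbp1-/-, numbered 1, 2, 3 and 4). All mice were fed standard rodent chow. The sources used here give no strain, age, batch or way in which the deletion was made. A p-value therefore speaks only of the spread among these 8 animals. All 40 genes passed the filter on low counts and were read in every heart, from 49 counts of Erg in wild-type 6 to 13686 counts of Aqp1 in knockout 1, so every library held RNA of endothelium.

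Endothelial cells line every vessel of the heart and are held together by adherens and tight junctions. They respond to vascular endothelial growth factor, angiopoietins and flow, and their capillary members pass fatty acids and water from blood to cardiomyocytes. Gpihbp1 is made by these capillary cells: it carries lipoprotein lipase to the luminal surface, where the enzyme releases fatty acids from circulating triglyceride. Loss of Gpihbp1 therefore removes a protein of the very cells that the 40 genes mark. The comparison asked what the hearts' endothelial transcripts look like without it. In whole-heart RNA, fewer endothelial cells and less RNA per endothelial cell cannot be told apart.

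Total counts ran from 9065561 to 13492971 per library. Gpihbp1 separated the groups, with 77.2, 185, 72.7 and 251 CPM (counts scaled by library size and TMM factor) in wild-type 2, 4, 5 and 6 and at most 1 read in a knockout heart. Several hearts stood apart in both groups. Wild-type 2 and knockout 2 held high levels of the fibroblast gene Postn, 1532 and 1069 CPM against 35.5 to 68.2 elsewhere. Wild-type 6 held the highest sum of red cell and platelet markers, 12370.2 CPM over 9 tested genes, and its TMM factor was 0.678 against 0.964 to 1.16 in the others. Results were therefore also computed without these hearts.

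None of the 40 endothelial genes passed the test between the genotypes. In edgeR's quasi-likelihood test 0 of 40 had an adjusted p under 0.05, against 0.0312% of the 12826 genes tested (0.0234% higher and 0.0078% lower in the knockout), and 0 of 40 passed in DESeq2. At an unadjusted p under 0.05 there were also 0 in either tool, against 0.904% of all genes in edgeR, and the groups overlapped in CPM for all 40, where 0.632% of all genes did not overlap. The log2 fold changes, knockout over wild-type, were positive for 20 genes and negative for 20, from -0.87 for Cldn5 to 0.50 for Mmrn2. Their median was -0.0077, beside -0.019 over all genes tested, of which 47.1% were positive.

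The intervals show how much these 8 hearts leave undecided. The 95% interval spanned 0 for all 40 genes. It lay within a doubling or halving, -1 to 1 on the log2 scale, for 11 of them. For the rest, a decrease of that size or more was inside the interval of 21 genes and such an increase inside that of 18. Standard errors ran from 0.26 for Heg1 to 0.68 for Car4. Equal levels were therefore not shown for most of the genes.

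**Figure D1:**
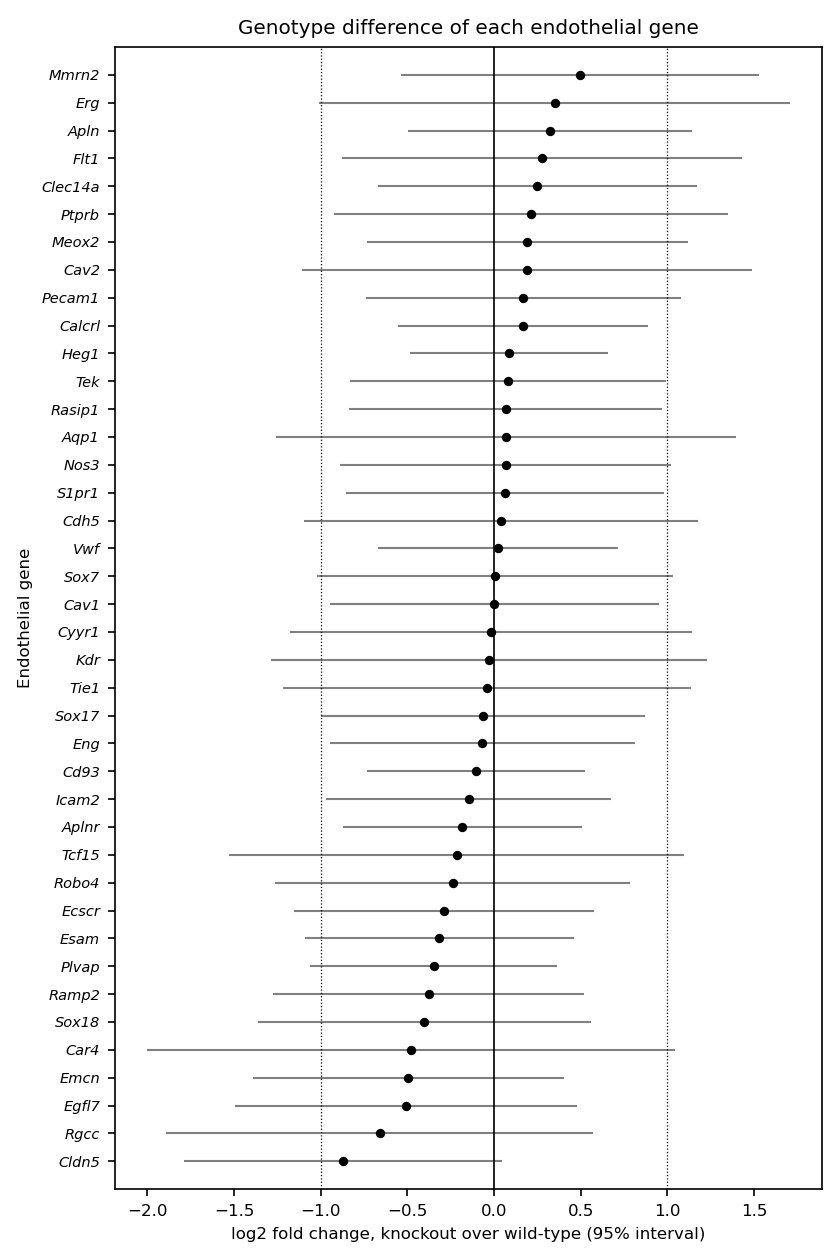
The log2 fold change of each of the 40 endothelial genes, knockout over wild-type, with its 95% interval from edgeR's quasi-likelihood fit (4 hearts a group). Every interval crosses 0, and dotted lines mark -1 and 1; Cldn5 at -0.87 and Mmrn2 at 0.50 are the ends of the range.

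Per transcript length, the 40 genes covered a wide range of abundance. By the authors' TPM, averaged over the 8 hearts, Aqp1 led at 317, followed by Cav1 at 258, Egfl7 at 155 and Eng at 132. Ramp2, Esam, Cdh5 and Sox18 came next, at 95.6, 92.3, 92.1 and 91.2, and differed by far less than the spread between hearts. The median was 37.7 TPM, and the lowest were Apln at 9.82, Clec14a at 9.08, Plvap at 8.79 and Calcrl at 6.97. Caveolar genes and receptors were found at both ends of this order.

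Genes of junctions and adhesion came first among the roles. Cldn5, the claudin of endothelial tight junctions, had the smallest p of the 40. It stood at 29.95, 81.5, 30.3 and 72.2 CPM in wild-type 2, 4, 5 and 6 against 39.8, 17.4, 24.2 and 35.7 in knockout 1, 2, 3 and 4. Wild-type 4 and 6 were high, while wild-type 2 and 5 lay among the knockout values, so the groups overlapped. Its log2 fold change was -0.87 (standard error 0.41), with a 95% interval of -1.79 to 0.048 and an unadjusted p of 0.0609 (edgeR adjusted p = 0.99998). Without wild-type 4 it was -0.58 and without wild-type 2 -1.07, and in all 8 fits that left out 1 heart it stayed negative.

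Emcn, a sialomucin of capillary and venous endothelium, was similar in shape, at 53.1, 173, 63.0 and 123 CPM in the 4 wild-type hearts in the same order against 99.7, 49.8, 76.7 and 66.0 in the knockout hearts. Again wild-type 4 and 6 were highest. The log2 fold change was -0.49 (standard error 0.40), -0.11 without wild-type 4 and -0.71 without wild-type 2. Esam, an adhesion molecule of endothelial tight junctions, had the highest TPM of this role (transcript abundance scaled for length and depth). Levels of Esam were 88.7, 196, 96.0 and 179 against 162, 79.4, 100.3 and 107 CPM. Its log2 fold change was -0.32 (standard error 0.35), -0.098 without wild-type 4 and -0.55 without knockout 1. The adherens junction cadherin Cdh5 and the adhesion receptor Pecam1 had 0.040 (standard error 0.51) and 0.17 (standard error 0.40) on the log2 scale, and 0.61 and 0.61 without wild-type 4. Icam2, a leukocyte adhesion ligand, and the guidance receptor Robo4 had -0.14 and -0.24. Of the 7 genes of this role 2 were positive and 5 negative.

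The growth factor receptors had small fold changes. Kdr, the main signalling receptor for vascular endothelial growth factor, had a log2 fold change of -0.030 (standard error 0.56) over a wide range of hearts, from 124 CPM in wild-type 2 to 634 in wild-type 4. Flt1, a high-affinity receptor that also acts as a trap for that factor, had the smallest p of the role. Its levels were 67.8, 312, 188 and 102 CPM in wild-type hearts against 325, 96.8, 208 and 182 in knockout hearts. Knockout 1 and wild-type 4 were the highest hearts, and the log2 fold change of 0.28 (standard error 0.51) was turned to -0.045 by leaving out knockout 1. Eng, a co-receptor for ligands of the TGF-beta family, was the most abundant receptor per length. It stood at 178, 588, 286 and 369 CPM in the wild-type against 446, 277, 358 and 276 in the knockout hearts, with -0.068 (standard error 0.39). The angiopoietin receptor Tek had 0.080, its relative Tie1 -0.041, and Ptprb, the phosphatase that restrains Tek, 0.21. All 6 lay between -0.068 and 0.28.

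**Figure D2:**
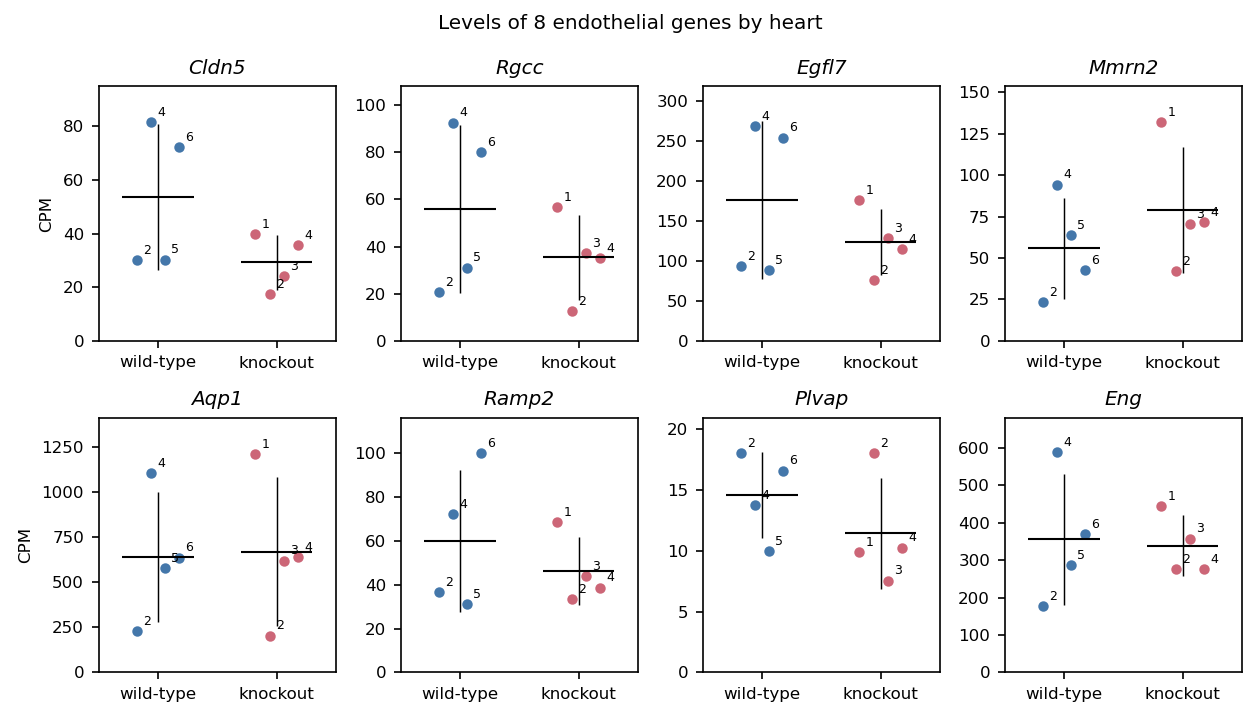
Levels in CPM of 8 endothelial genes, 1 panel a gene, with 4 wild-type and 4 knockout hearts as points marked by their numbers, the mean as a horizontal line and the SD as a vertical line. In each panel the points of the groups overlap; wild-type 4 is the highest wild-type heart for Cldn5 at 81.5, while Ramp2 peaks in wild-type 6 at 100.2 and, among wild-type hearts, Plvap in wild-type 2 at 18.04.

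Receptors coupled to G proteins, with a partner and a ligand, differed among themselves. Ramp2, which pairs with Calcrl to form the adrenomedullin receptor, stood at 36.5, 72.2, 31.1 and 100.2 CPM in the wild-type hearts against 68.5, 33.6, 44.0 and 38.7 in the knockout hearts. It peaked in wild-type 6, and its log2 fold change was -0.38 (standard error 0.40), -0.032 without that heart and -0.63 without knockout 1. Calcrl itself was lowest in wild-type 6, at 14.2 CPM against 20.3 to 38.4 elsewhere. The ratio of Ramp2 to Calcrl in TPM was 48.3 in wild-type 6 and from 10.2 to 14.0 in the other 7 hearts. Partners of 1 receptor thus parted in a single heart. The longest transcript of Ramp2 has 1478 bases and that of Calcrl 4882. In wild-type 6 shorter genes lay higher than longer ones at the median, among genes outside the 40 too. The ratio of Cav1 to Cav2, of 2746 and 2733 bases, was also highest there, at 18.9 against 5.24 to 8.83 elsewhere. The other pairs compared did not peak in that heart. What length has to do with these ratios was not tested.

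Apln, the peptide ligand of Aplnr, did not follow most of the other genes. It was highest in wild-type 5 and knockout 4, at 35.5 and 35.6 CPM, against 11.4 to 22.6 in the other 6. Its log2 fold change was 0.32 (standard error 0.37), that of the receptor Aplnr -0.18 (standard error 0.31), and that of S1pr1, the sphingosine 1-phosphate receptor that steadies junctions, 0.065 (standard error 0.41). Neither Apln nor Aplnr passed the test.

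The transcription factors held the same overlap. Sox18, a factor of the SoxF group, was the most abundant of the 6 per length and had the smallest p among them, 0.371. It stood at 64.9, 211, 79.5 and 119 CPM in wild-type 2, 4, 5 and 6 against 134, 48.5, 97.3 and 80.2 in knockout 1, 2, 3 and 4. Wild-type 4 was well above all other hearts, and the log2 fold change was -0.40 (standard error 0.43). The other SoxF genes, Sox7 and Sox17, had 0.0036 and -0.065. Erg, the ETS factor that maintains endothelial identity, had 0.35 (standard error 0.60) and the widest wild-type range of the 40, 8.29-fold from wild-type 6 to wild-type 4. Tcf15 and Meox2, which act as partners in heart capillaries and promote fatty acid uptake, had -0.22 (standard error 0.59) and 0.19 (standard error 0.41).

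Promoter sequence was examined because so many of the genes moved together from heart to heart and because ETS and SoxF factors are among them. RefSeq promoter windows (assembly GRCm38.p6) matched 22 of the 40 genes by gene identifier, with 27 windows, and the 250 bases before each start were searched on both strands. The 18 genes without a window were Pecam1, Cdh5, Esam, Icam2, Ptprb, S1pr1, Ramp2, Aplnr, Sox7, Sox17, Sox18, Tcf15, Plvap, Vwf, Nos3, Cd93, Mmrn2 and Ecscr. The ETS-type motif AGGAAGT was in 5 of 27 windows, 18.5%, against 7.69% of 32851 windows of the same length, and the other ETS-type motif, CCGGAAG, in 1 of 27 against 6.91%. For the SOX-type motif AACAAT the shares were 14.8% and 9.42%, for the KLF-type CCACCC 37.0% and 28.1%, and for the NFAT-type GGAAAA 22.2% and 20.4%. FOX-type GTAAACA was in 0 of 27 against 3.17%, GATA-type AGATAA in 1 against 9.99%, and the E-box CAGCTG in 2 against 13.0%. These are counts of letters in a window and mark no bound site. What the motifs have to do with the shared movement from heart to heart was not tested.

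The 5 windows with AGGAAGT belong to Egfl7 (at 2 of its 3 starts), Eng, Flt1 and Rgcc. They are printed 5′ to 3′ on the gene's strand with the ETS-type motifs AGGAAGT and CCGGAAG and the SOX-type motif AACAAT, or the reverse complement of each, in capitals. The window of Cldn5, the gene with the smallest p, is added and holds none of these. They were picked after the search, to show the motif in its context.
Egfl7 (chr2:26580833-26581082, plus strand): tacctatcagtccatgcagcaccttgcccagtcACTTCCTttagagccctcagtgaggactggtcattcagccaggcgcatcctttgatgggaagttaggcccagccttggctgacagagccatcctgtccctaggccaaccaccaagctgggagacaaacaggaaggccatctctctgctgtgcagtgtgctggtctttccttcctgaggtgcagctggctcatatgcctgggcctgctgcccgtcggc
Egfl7 (chr2:26583615-26583864, plus strand): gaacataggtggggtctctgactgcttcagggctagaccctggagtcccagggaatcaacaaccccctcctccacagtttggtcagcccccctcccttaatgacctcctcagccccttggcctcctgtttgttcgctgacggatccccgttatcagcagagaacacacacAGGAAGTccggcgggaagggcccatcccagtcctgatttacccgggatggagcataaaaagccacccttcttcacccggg
Eng (chr2:32646345-32646594, plus strand): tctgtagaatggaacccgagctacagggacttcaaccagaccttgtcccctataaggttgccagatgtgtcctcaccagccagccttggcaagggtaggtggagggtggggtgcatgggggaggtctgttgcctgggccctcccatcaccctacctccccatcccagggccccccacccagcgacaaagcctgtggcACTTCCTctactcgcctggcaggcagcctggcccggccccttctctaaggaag
Flt1 (chr5:147726012-147726261, minus strand): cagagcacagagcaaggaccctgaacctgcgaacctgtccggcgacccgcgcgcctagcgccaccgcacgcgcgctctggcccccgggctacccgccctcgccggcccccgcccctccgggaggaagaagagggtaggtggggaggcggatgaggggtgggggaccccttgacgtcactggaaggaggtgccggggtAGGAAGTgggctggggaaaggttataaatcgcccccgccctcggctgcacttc
Rgcc (chr14:79301636-79301885, minus strand): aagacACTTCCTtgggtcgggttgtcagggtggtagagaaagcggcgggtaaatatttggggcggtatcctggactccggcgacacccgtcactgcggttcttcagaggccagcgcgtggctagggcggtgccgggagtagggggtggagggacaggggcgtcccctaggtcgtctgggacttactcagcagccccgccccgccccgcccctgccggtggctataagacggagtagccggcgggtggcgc
Cldn5 (chr16:18776597-18776846, plus strand): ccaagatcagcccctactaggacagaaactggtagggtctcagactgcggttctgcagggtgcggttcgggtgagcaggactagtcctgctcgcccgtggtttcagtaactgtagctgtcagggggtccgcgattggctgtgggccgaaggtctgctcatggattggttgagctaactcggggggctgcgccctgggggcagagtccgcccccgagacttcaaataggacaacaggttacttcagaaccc

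Capillary and transport genes varied widely from heart to heart. Aqp1, the water channel, was the most abundant of the 40 per length, at 289.5 ± 219 TPM over wild-type hearts against 344 ± 212 over knockout hearts (SD, n = 4 per group). In CPM it stood at 230.1, 1106, 579 and 636 in the wild-type against 1210.4, 204, 619 and 638 in the knockout hearts. Knockout 1 and wild-type 4 were at the top, knockout 2 and wild-type 2 at the bottom, and the log2 fold change was 0.067 (standard error 0.59). Rgcc, a cell-cycle regulator abundant in heart capillaries, had the second most negative value after Cldn5 and did not pass the test. Its values were 20.5, 92.6, 31.1 and 80.0 CPM in wild-type hearts against 56.6, 12.8, 37.4 and 35.0 in knockout hearts. Wild-type 4 and 6 were high, and the groups overlapped, since knockout 1, 3 and 4 lay above wild-type 2 and 5. Its log2 fold change was -0.66 (standard error 0.55), with a 95% interval of -1.89 to 0.57. Without wild-type 4 it was -0.29 and without knockout 1 -0.98.

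Car4, a carbonic anhydrase tethered to the capillary lumen, ran from 5.84 CPM in knockout 2 to 57.1 in wild-type 4, and its interval of -2.004 to 1.05 was the widest of all. Cav1, the coat protein of caveolae, was the second most abundant gene per length and had almost equal means, 439 ± 247 CPM over wild-type hearts against 439.6 ± 146 over knockout hearts (SD, n = 4 per group). Its partner Cav2 had 0.19 (standard error 0.58) and Cyyr1, a small membrane protein, -0.017 (standard error 0.52). Plvap, which builds the diaphragms of fenestrae and caveolae, did not follow the others. It was highest in wild-type 2 and knockout 2, at 18.04, 13.8, 9.95 and 16.6 CPM in wild-type 2, 4, 5 and 6 against 9.91, 18.05, 7.54 and 10.3 in knockout 1, 2, 3 and 4, with -0.35 (standard error 0.32).

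Among secreted proteins, Egfl7, an endothelial matrix protein, was the third most abundant of the 40 per length. It stood at 93.5, 268, 89.0 and 254 CPM in wild-type hearts against 176, 75.9, 129 and 115 in knockout hearts, high in wild-type 4 and 6, with -0.51 (standard error 0.44), or -0.22 without wild-type 4. The clotting protein Vwf and the nitric oxide synthase Nos3 had 0.022 (standard error 0.31) and 0.067 (standard error 0.42), and 0.34 and 0.55 without wild-type 4. In the last role, Mmrn2, a matrix protein that the surface lectins Clec14a and Cd93 bind, had the highest positive value of the 40. It stood at 23.3, 94.2, 63.7 and 42.6 CPM in the wild-type against 132, 42.1, 70.2 and 71.8 in the knockout hearts. Knockout 1 was high and the other 3 knockout hearts lay within the wild-type range. The log2 fold change was 0.50 (standard error 0.46), 0.13 without knockout 1 and 0.88 without wild-type 4.

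Clec14a had 0.25 (standard error 0.41) and Cd93 -0.10 (standard error 0.28). Ecscr, a surface protein of endothelial migration and the most abundant of its role per length, stood at 35.9, 45.8, 14.4 and 45.5 CPM in wild-type hearts against 34.9, 40.1, 21.0 and 19.8 in knockout hearts, with -0.29 (standard error 0.39). Its lowest heart was wild-type 5, which was lowest for 3 of the 40 genes. Rasip1, needed for vessel lumens, and Heg1, a receptor that stabilises junctions, had 0.067 (standard error 0.40) and 0.086 (standard error 0.26). Heg1 was the steadiest of the 40, with a standard error of 0.26 and a wild-type range of 1.74-fold.

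By role, the median log2 fold change was -0.24 for 7 junction and adhesion genes, 0.025 for 6 growth factor receptor genes and 0.065 for 5 genes of G protein-coupled receptors. It was -0.030 for 6 transcription factors, -0.017 for 7 caveolar, transport and capillary genes, 0.022 for Vwf, Egfl7 and Nos3, and 0.077 for 6 lectin, matrix and signalling genes. The junction genes had the most negative median of the 7 roles, with 5 of 7 below 0 and none past the test. Some of the signs, though, depended on wild-type 4. Without that heart Robo4 and Icam2 turned positive, at 0.24 and 0.11. Pecam1 and Cdh5, positive before, had 0.61 and 0.61, so 4 of the 7 were positive. Cldn5, Emcn and Esam stayed negative, at -0.58, -0.11 and -0.098.

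Hearts of 1 genotype lay farther apart than the genotype means. The highest wild-type heart was more than 2 times the lowest for 37 of the 40 genes, while 37 had a log2 fold change between -0.5 and 0.5. These counts set single hearts beside group means at unlike cutoffs, and neither was made over all genes. For each gene the mean log2 CPM of the 8 hearts was subtracted, and the median of the 40 deviations was taken in each heart. It was -0.72, 0.95, -0.026 and -0.29 in wild-type 2, 4, 5 and 6. Over the knockout hearts it was 0.68, -0.50, 0.016 and 0.0059 in knockout 1, 2, 3 and 4. Wild-type 4 and knockout 1 were high in 39 of 40 genes each, while wild-type 2 was low in 37 and knockout 2 in 34. On this CPM scale wild-type 4 and knockout 1 were the highest and wild-type 2 and knockout 2 the lowest hearts of their genotypes. On the TPM scale the median deviation of wild-type 6 was -1.305, below that of wild-type 2 at -0.70, so the lowest wild-type heart depended on the scale.

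The sum over the 40 genes was 2595, 8424, 4423 and 4164 CPM in wild-type 2, 4, 5 and 6 against 7272, 2971, 4479 and 4548 in knockout 1, 2, 3 and 4. Among wild-type hearts the highest sum was 3.25 times the lowest, and among knockout hearts 2.45 times. The mean over wild-type hearts was 4902 ± 2483 CPM and over knockout hearts 4817 ± 1791 (SD, n = 4 per group). The median coefficient of variation over the genes was 56.0% among wild-type and 36.0% among knockout hearts. It was larger among wild-type hearts for 38 of 40 genes, a difference in spread that was not tested or counted over all genes. Over all tested genes each wild-type heart was the highest of the 8 for 14.8% to 25.1%. Knockout 1, 3 and 4 were highest for 3.82% to 4.87% each and knockout 2 for 16.1%. The median SD over all 8 hearts was 0.63 log2 units for the 40 genes and 0.45 for all genes tested.

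**Figure D3:**
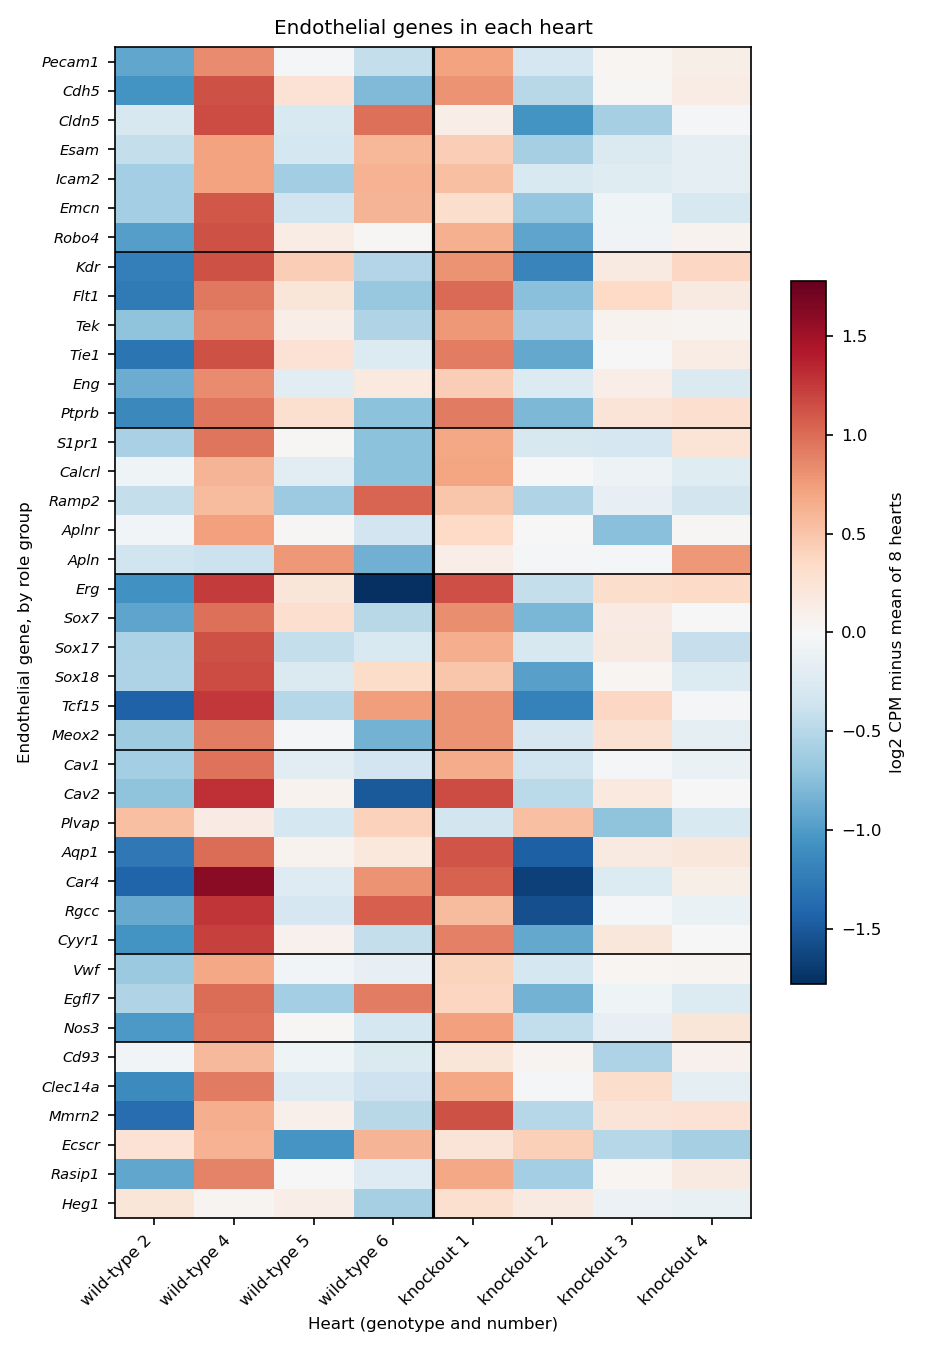
Log2 CPM of each endothelial gene in each heart minus the gene's mean over the 8 hearts, red above and blue below it, with horizontal lines between role groups and a vertical line between genotypes. Wild-type 4 and knockout 1 are above the mean in 39 of 40 genes each; Apln, Plvap, Ecscr and Heg1 depart from the common pattern.

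Wild-type 4 was the highest of the 8 hearts for 32 of the 40 genes, 80.0%, against 14.8% of all tested genes, and knockout 1 for 5, 12.5% against 4.49%. The lowest heart was wild-type 2 for 19 genes, 47.5% against 14.8%, knockout 2 for 8, 20% against 13.1%, and wild-type 6 for 7, 17.5% against 23.5%. Within the knockout group knockout 1 was highest for 37 genes and knockout 2 lowest for 30, counts that were not made over all genes. Among the exceptions, Plvap had its 2 highest hearts where most genes were low, in knockout 2 and wild-type 2 (0.53 and 0.53 log2 units), and in wild-type 2 only Plvap, Ecscr and Heg1 were above their mean.

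Other vessel gene lists followed this order of hearts in part. The median deviation of 30 further pan-endothelial genes, such as Fli1 and Ets1, was 0.96 in wild-type 4, 0.59 in knockout 1, -0.74 in wild-type 2 and -0.54 in knockout 2, as in the 40. The 9 endothelial activation genes had another order, highest in knockout 2 (0.48) and wild-type 2 (0.38) with wild-type 4 at 0.024. Macrophage and fibroblast markers were also highest in those hearts, and which cells made the activation transcripts was not tested. The 6 venous genes were high in wild-type 4 (0.45) and knockout 1 (0.46) but lowest in wild-type 6 (-0.97). Endocardial and lymphatic markers, which are endothelial too, had their lowest medians in wild-type 2 (-0.95 and -0.73). By summed CPM the lymphatic markers were lowest in wild-type 6, at 143 against 152 in wild-type 2. Mural markers had medians of 0.38 in wild-type 4, -0.10 in wild-type 2 and -0.46 in knockout 2, but their summed CPM ran the other way, lowest in wild-type 4 and highest in knockout 2. Markers of cells outside the vessel wall showed other orders. Macrophage markers (14 of 14 tested) were highest where endothelial genes were lowest, with medians of 2.24 in wild-type 2 and 1.59 in knockout 2. Fibroblast markers (14 of 15 tested) had 1.15 and 0.52 in those hearts, and cardiomyocyte markers (15 of 15) -0.82 in both. In wild-type 4 and knockout 1 the cardiomyocyte median was -0.15 and 0.039.

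Summed levels of those markers overlapped between the genotypes. Cardiomyocyte markers ran from 57354 to 189865 CPM in wild-type hearts and from 53833 to 139180.0 in knockout hearts, fibroblast markers from 3076 to 10852 and 2732 to 12152, and macrophage markers from 373 to 3487 and 477 to 2481. Mural cell markers, of pericytes and smooth muscle, ran from 3129.5 to 6089 and 3919 to 6386, and endocardial markers (7 of 8 tested) from 184 to 439.8 and 201 to 382. The mural sums include Des, which cardiomyocytes also express, at a mean of 3273 CPM in wild-type and 3255 in knockout hearts. Adipocyte markers were all but absent: Adipoq and Cidec had 0 counts in 6 of 8 hearts, and of the list only Fabp4, which capillaries also express, was tested. The most abundant marker per list gave log2 fold changes of -0.66 for Myl2 (cardiomyocytes), -0.36 for Gsn (fibroblasts), -0.0079 for Des (mural list) and -0.48 for C1qb (macrophages). Values were -0.075 for Plxnd1 (endocardium), -0.39 for Nppa (atrial list), -0.52 for Fabp4 and -2.40 for Hba-a1 (red cells, a gene with a near-identical copy). None of them passed the test. Nppa had the smallest change of the 3 tested atrial genes, whose median log2 fold change was -1.60 and minimum -6.86. Of these 3, 1 was lower at an unadjusted p under 0.05 in edgeR, and 0 passed. All 3 were above their mean in wild-type 6, with a median deviation of 2.91 there against -1.25 to -0.87 in the other hearts. By summed CPM of these 3 genes, knockout 2 (4479), wild-type 6 (4436) and wild-type 2 (3146) were all high, against 184 to 328 elsewhere. The part of this cell makeup in the endothelial values was not tested.

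**Figure D4:**
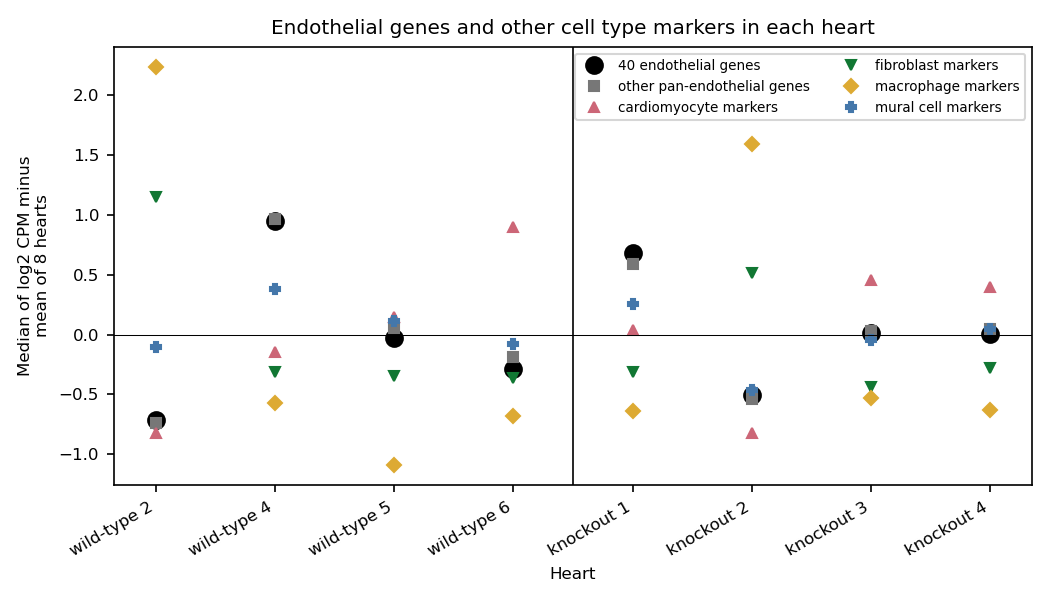
Median over each gene list of log2 CPM minus the gene's mean over 8 hearts, by heart: the 40 endothelial genes as black circles, 30 further pan-endothelial genes and 4 lists of other cell types in colour. Both endothelial lists are highest in wild-type 4 and knockout 1, and macrophage markers are highest in wild-type 2 at 2.24 and knockout 2 at 1.59.

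Lymphatic endothelium was followed with 8 markers, 7 positive and 1 negative, with a median log2 fold change of 0.25. The negative one was Ccl21a at -0.19, the most abundant of the list and a gene with close copies. Lyve1, a hyaluronan receptor of lymphatic vessels and resident macrophages, was the one whose groups did not overlap (0.265% of all genes did so in the higher direction), and it was singled out after its values were seen. It stood at 12.0, 18.9, 21.4 and 16.6 CPM in wild-type 2, 4, 5 and 6 against 24.3, 23.7, 25.4 and 25.3 in knockout 1, 2, 3 and 4, a log2 fold change of 0.52 (standard error 0.21). Its unadjusted p was 0.0374 and it did not pass over all genes (edgeR adjusted p = 0.99998). The groups overlapped for the other 7 lymphatic markers and for the other 13 macrophage markers, the list that also holds Lyve1.

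In wild-type 6 the endothelial genes split by transcript length. The longest annotated transcript (GENCODE M21) was taken for each gene, from 918 bases for Rgcc to 11911 for Ptprb, and the genes were divided at the median of 3274 bases into 20 shorter and 20 longer. In wild-type 6 the median deviation was 0.37 log2 units for the shorter and -0.43 for the longer genes. In wild-type 2 it was -0.59 and -0.95, a smaller gap in the same direction. In wild-type 5 the order was the opposite, -0.26 and 0.084. Rgcc, Ramp2, Cldn5 and Egfl7, all short, had 1.06, 1.04, 0.98 and 0.91 in wild-type 6. Erg and Cav2, also in the shorter class, were the lowest of the 40 there, at -1.78 and -1.49.

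A split of the same direction was present across the rest of the table. Over 12518 other genes, divided at the same length, the medians in wild-type 6 were 0.29 for shorter and -0.23 for longer ones, and in wild-type 5 -0.21 and 0.14. Across the 40 genes Pearson's r of the deviation with log2 length was -0.65 in wild-type 6 and 0.64 in wild-type 5. These points are genes that share 1 library and are not replicates. By length class, 12 of 20 shorter genes were negative, with a median log2 fold change of -0.18, and 8 of 20 longer genes, with a median of 0.031. Without wild-type 6 it was 16 of 20 in both classes, with medians of -0.15 and -0.087. On the TPM scale, wild-type 6 had the lowest sum over the 40 genes of all hearts, 1101 against 1234 to 4416. What length has to do with the genotype values was not tested.

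**Figure D5:**
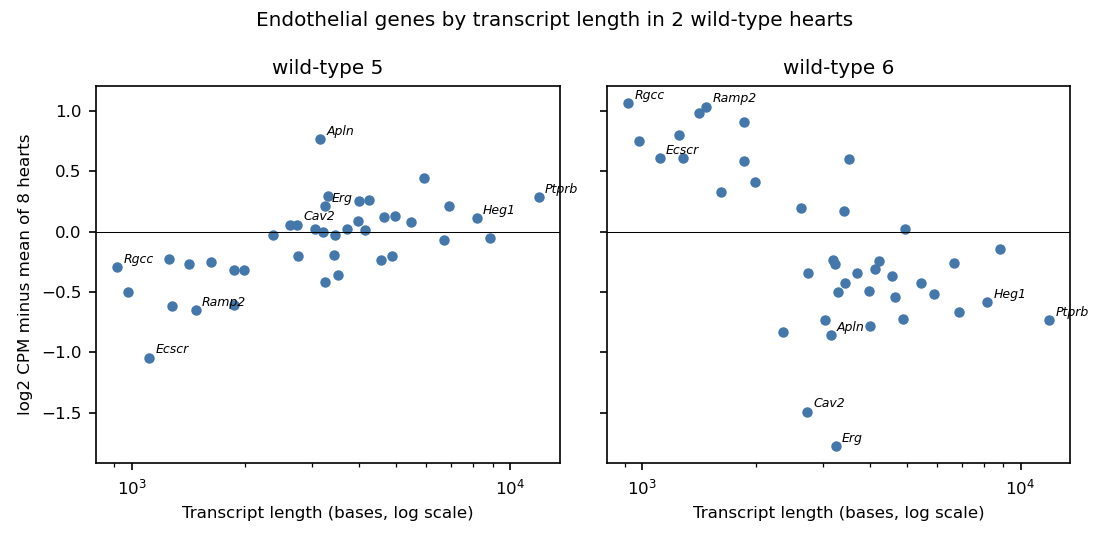
Deviation of each endothelial gene from its mean log2 CPM over 8 hearts against the length of its longest transcript (log axis) in wild-type 5 and wild-type 6; points are the 40 genes. Short genes such as Rgcc lie above 0 in wild-type 6 (1.06) and below 0 in wild-type 5 (-0.30), and long genes such as Ptprb the reverse.

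Gpihbp1, which is not one of the 40 genes, was set against their summed CPM in the wild-type hearts. Its level equalled 2.97%, 2.20%, 1.64% and 6.02% of that sum in wild-type 2, 4, 5 and 6. This ratio was highest in wild-type 6, while the endothelial sum itself was highest in wild-type 4. By the authors' TPM, Gpihbp1 was highest in wild-type 4, at 439 against 236 in wild-type 6, so its highest heart depended on the scale. The longest transcript of Gpihbp1 has 1652 bases, which places it with the shorter genes.

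The wider set of vessel genes was counted in the same fit. Of 99 genes in 8 lists (ligands, Notch, arterial, venous, sprouting, activation, BMP and flow response, and other pan-endothelial genes) 97 were tested and 0 passed, also 0 at an unadjusted p under 0.05. Angiogenic ligands were 6 positive and 9 negative (median -0.027), with Pdgfb, which recruits pericytes, at -0.59 (standard error 0.34) and Pgf at -0.41 (standard error 0.31). Notch genes were 8 positive and 6 negative (median 0.032), with the target Hey2 at 0.55 (standard error 0.39) and the ligand Jag1 at 0.30 (standard error 0.34). Arterial genes were 7 positive and 3 negative (median 0.11), with Sema3g at 0.42 (standard error 0.44) and Mecom at 0.41 (standard error 0.40). No list stood out by its count of genes past the test.

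All 6 tested venous genes were positive, with a median of 0.36. Vcam1, a leukocyte adhesion molecule, had 0.49 (standard error 0.33) and Nrp2 0.39 (standard error 0.38). The venous median deviation was lowest in wild-type 6 (-0.97) and next in wild-type 2 (-0.64), and Flt4 is also among the lymphatic markers. Activation genes, which share Vcam1, Selp and the untested Ackr1 with the venous list and so are no separate tally, were 8 positive and 1 negative (median 0.24), with Csf1 at 0.24 (standard error 0.25). Sprouting genes were 4 positive and 5 negative (median -0.079). Genes of BMP and flow response were 4 positive and 7 negative (median -0.039), with the BMP targets Id3 and Id1 at -0.72 (standard error 0.37) and -0.69 (standard error 0.44). The 30 other pan-endothelial genes were 14 positive and 16 negative (median -0.056), with Gng11, a G protein subunit, at -1.05 (standard error 0.49) and Exoc3l2 at -0.58 (standard error 0.36). None of these values passed the test.

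The direction of the endothelial genes as a group depended on single hearts. Without wild-type 4 the median log2 fold change was 0.46, with 32 genes positive. Without knockout 1 it was -0.27, with 35 negative, and without wild-type 2 or wild-type 6 it was -0.22 and -0.13, with 32 negative each. Without knockout 2 it was 0.16, with 26 positive. Without wild-type 2 and knockout 2 together it was -0.045, and without wild-type 6 as well -0.25, with 38 of 40 negative. In every one of these fits 0 of the 40 genes passed.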

How the data were processed

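RNA of 4 wild-type and 4 Gpihbp1 knockout hearts was measured by polyadenylated, strand-specific RNA sequencing, per the labels' protocols; 1 protocol paragraph names rat tissue, while every sample is labelled mouse. HISAT, Bowtie2 and the build GRCm39 are named in the submitters' processing notes. Which program counted the reads was not given in the sources used here. Files deposited by the authors hold expected counts (estimated, 4.32% to 5.89% of a library's values not whole), TPM and FPKM per library, per the file headers; FPKM entered no result, and 8 empty per-sample columns were not used. Estimated counts can divide reads between genes of shared sequence.

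Counts were rounded and filtered with edgeR's filterByExpr (minimum count 10, minimum total 15; 12826 genes). They were fitted with edgeR 4.0.16 in R 4.3.3 (TMM, robust quasi-likelihood F-test, no covariates), with Benjamini-Hochberg adjustment over all genes tested and 0.05 as the threshold. Each standard error is the fitted log2 change over the root of F. Deviations use log2 CPM with a prior count of 2. DESeq2 1.42.0, other scalings and filters, a replicate block and fits without 1 or more hearts were alternatives. No 2 libraries agreed within sampling noise (chi-square per degree of freedom at least 7.59).

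The 40 genes, lists, alternatives and the rule for named genes were chosen with earlier results of these data known. All 40 genes are named. Values in every heart are given for the 6 with the smallest p and for the gene with the highest TPM and the one with the smallest p in each of 7 role groups; of each pathway list up to 2 genes with the smallest p are named. The genes whose groups did not overlap would have been added, and there were 0. Deviations of other genes named were chosen after their values were seen.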

Additional observations from a re-analysis of the deposited data

Results flagged for a closer look

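In 4 of 83 series of 4 hearts, 1 heart lay far from the other 3 by Dixon's 95% criterion; chance marks about 5% of such series. Sox17 in wild-type 4 stood at 59.7 CPM against 18.5 to 22.6 in the other wild-type hearts, and Cav1 in the same heart at 805 against 269 to 358. Icam2 in knockout 1 stood at 56.6 CPM against 32.0 to 34.9 in the other knockout hearts. Apln in knockout 4 stood at 35.6 CPM against 20.3 to 22.6. The first 3 are in the hearts highest in endothelial genes of their genotype.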

How the results depend on the processing

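The count of endothelial genes past the threshold was 0 in 16 of 17 alternatives: RLE and total-count scaling, no filter and a strict filter, DESeq2, 8 fits without 1 heart each, the fits without 2 or 3 hearts that stand apart, and scaling to the 40 genes' own summed counts, which was chosen after seeing the data. The exception was the replicate block, with the replicate number as a factor: 2 genes passed, Cldn5 at -0.99 and Rgcc at -1.05 (edgeR adjusted p = 0.0390 and 0.0279), against 0, and 3 pathway genes, Id1, Gng11 and Lyl1 (Lyl1 named after its value was seen), against 0, with 168 genes called in all against 4. That fit rests on the hearts numbered 2 and 4 alone, and nothing in the labels ties equal numbers together; same-numbered hearts deviated with correlations of 0.91 (number 2) and 0.11 (number 4), so the numbers were not taken as pairs. Under the block the median of the 40 genes was -0.36, with 38 of 40 negative, against -0.0077 with 20 negative. Under the block Flt1 and Aqp1 had -0.14 and -0.48, and without the 3 hearts that stand apart -0.067 and -0.033. Eng had 0.012 with total-count scaling and 0.016 with the genes' own sum. Leaving out 1 heart, Aqp1 ran from -0.39 to 0.49, Eng from -0.29 to 0.30, Sox18 from -0.65 to 0.047, Flt1 from -0.045 to 0.78 and the median of the 40 genes from -0.27 to 0.46. In those 8 fits Cldn5, Esam, Emcn, Ramp2, Plvap, Rgcc, Egfl7 and Ecscr stayed negative and Mmrn2 positive, all short of the threshold. Genes called over the whole table numbered 4, against 1 with the strict filter, 8 in DESeq2 and 2 each without wild-type 4 or wild-type 5. Total-count scaling moved the median log2 fold change of all genes from -0.019 to 0.081 and that of the 40 genes to 0.020. Of 221 values of the 13 named genes under alternatives, 206 kept direction and stayed short of the threshold. With TPM in place of CPM the median deviation in wild-type 6 was -1.305 rather than -0.29; TPM carries no TMM factor. Each of the 40 genes had at least 49 counts a heart, so the spread between hearts limits precision more than depth. Apart from the alternatives' own construction the cause of these shifts was not tested.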
